A study of Mus musculus with 8 samples.

Results

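The genes described here are 10 ligands and receptors of the transforming growth factor beta (TGF-beta) family in the neonatal mouse heart. The ligands are Tgfb1, Tgfb2, Tgfb3, Bmp4 and Bmp10, and the receptors are Tgfbr1, Tgfbr2, Tgfbr3, Bmpr1a and Bmpr2. They were listed by name, with earlier results of these data known. Each symbol was looked up in the gene names of all heart files, and the locus with the highest mean value was taken where a symbol had several. All 10 symbols were found, with 1 locus each, among 80155 loci, of which 39614 carry a gene name. Whole hearts of male Hsd:ICR(CD-1) mice were collected on postnatal day 1 (P1, 4 hearts) and postnatal day 7 (P7, 4 hearts), with the atrial appendages cut away and the tissue snap-frozen. No genotype or drug separates the groups, and age is the only labelled difference. Each heart has its own animal identifier in the labels and gave 1 RNA-seq library from ribosome-depleted total RNA, prepared with the ScriptSeq v2 kit. The comparison of P7 with P1 asks what changes in the heart over the first week, in which the mouse heart loses its ability to regenerate after injury.

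TGF-beta family ligands are secreted dimers that bring together type I and type II receptor kinases at the cell surface, and the type I kinase then phosphorylates Smad proteins, which enter the nucleus and act on transcription. The TGF-beta and activin branch works mainly through Smad2 and Smad3, and the bone morphogenetic protein (BMP) branch through Smad1, Smad5 and Smad9. In the heart the family is known for its part in valve and cushion formation, ventricular trabeculation, fibroblast activation and the deposition of extracellular matrix.

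Values are FPKM, fragments scaled by transcript length and by the mapped fragments of the library. Levels of different genes can be set side by side only roughly, since this scaling corrects neither base composition nor intervals shared between genes. Fold changes and their standard errors (SE) come from limma fitted on log2(FPKM + 1) over all 43172 tested loci, which understates the change of genes with low FPKM. A gene was called differentially expressed when its Benjamini-Hochberg adjusted p was under 0.05 and its mean FPKM differed at least 1.5-fold. Of 17960 tested loci with a gene name, 1462 were called (8.14%): 7.74% were higher in P7 and 0.401% were lower. Over all tested loci, named or not, 3.82% were called. Of the named loci, called or not, 67.6% had a positive log2 fold change, and the median over them was 0.19, so a small positive value was the usual result of this comparison. Between 20269 and 28662 loci reached 1 FPKM per heart, and the FPKM that 1 fragment is worth, relative to the heart where it was smallest, ranged from 1.0 to 2.14, a measure of unequal depth. The summed FPKM of P7 replicate 4 was 2136940, against 1038650 to 1400590 in the other hearts, and 27.3% of it lay in named loci. The heart was recognisable in every library: summed FPKM of 5 cardiomyocyte genes (Myh6, Actn2, Tnnt2, Tnni3 and Ryr2) ran from 4348 to 11863.

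None of the 10 ligands and receptors was called between P1 and P7 by limma, and 4 had an unadjusted p under 0.05 (Tgfb1, Tgfb3, Tgfbr2 and Bmp4, all with higher means in P7). At that unadjusted limit 29.7% of named loci passed. The log2 fold changes of the 10 ran from -0.33 to 0.82 with a median of 0.34 (7 positive and 3 negative). All 10 were present in every heart at 1 FPKM or more, from 2.47 FPKM for Bmp4 in a P1 heart to 66.4 FPKM for Bmpr1a in another P1 heart. Within each heart, the ratios of Tgfb2 to Tgfb1, Tgfb3 to Tgfb2, Tgfbr1 to Tgfbr2 and Bmpr1a to Bmpr2 did not overlap between P1 and P7 (2-sided exact permutation p = 0.0286 each, 0.0571 after adjustment over 8 ratios). The share of other gene pairs that do not overlap was not computed.

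**Figure D1:**
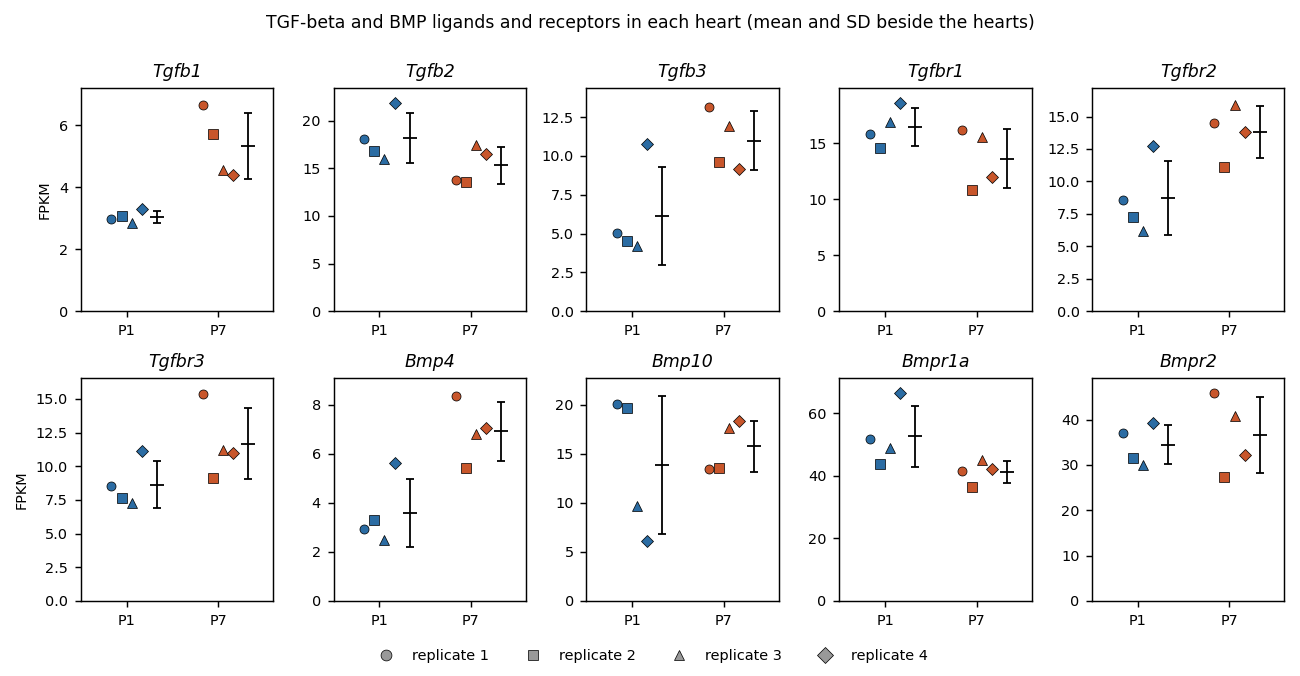
FPKM of each of the 10 ligands and receptors (y axis, from 0) in the 4 P1 hearts (blue) and the 4 P7 hearts (orange), 1 symbol shape per replicate number, with the mean and SD drawn beside them. Tgfb1 is the 1 panel without overlap between stages (2.86 to 3.30 FPKM in P1, 4.39 to 6.66 in P7), and P1 replicate 4 (diamond) is the highest P1 heart in 9 panels and the lowest for Bmp10.

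The promoters of Tgfb1, Tgfb2 and Bmp10 are shown because the ratio of Tgfb2 to Tgfb1 did not overlap between the stages, and because Bmp10 is the ligand whose known source is largely cardiac muscle. Each is the 250 bases before the annotated transcription start in RefSeq (GRCm38.p6), in the direction of transcription. Of the 10 genes, 8 were matched to 9 such promoters among 32851, and Tgfb3 and Tgfbr3 were not matched. Capitals mark matches, on either strand, to a GC box (GGGCGG, in 32.7% of all these promoters), a TATA box (TATAAA, 12.4%) or an E-box (CACGTG, 6.02%). A cAMP response element (TGACGTCA, 1.55%) and an NKX element (TNAAGTG, 10.1%) were searched as well and matched none of the 9. The Tgfb1 promoter lies at chr7:25686752-25687001 on the plus strand, the Tgfb2 promoter at chr1:186705990-186706239 on the minus strand, and the Bmp10 promoter at chr6:87428744-87428993 on the plus strand.
Tgfb1 promoter: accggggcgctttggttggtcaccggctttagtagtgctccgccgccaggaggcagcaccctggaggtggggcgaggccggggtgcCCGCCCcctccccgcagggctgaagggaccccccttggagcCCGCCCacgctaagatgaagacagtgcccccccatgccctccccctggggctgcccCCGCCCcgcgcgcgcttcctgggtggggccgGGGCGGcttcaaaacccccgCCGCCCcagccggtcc
Tgfb2 promoter: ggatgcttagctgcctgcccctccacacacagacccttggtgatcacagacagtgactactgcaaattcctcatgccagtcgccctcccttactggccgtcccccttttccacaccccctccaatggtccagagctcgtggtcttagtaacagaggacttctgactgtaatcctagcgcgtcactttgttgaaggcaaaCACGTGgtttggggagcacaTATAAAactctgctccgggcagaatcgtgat
Bmp10 promoter: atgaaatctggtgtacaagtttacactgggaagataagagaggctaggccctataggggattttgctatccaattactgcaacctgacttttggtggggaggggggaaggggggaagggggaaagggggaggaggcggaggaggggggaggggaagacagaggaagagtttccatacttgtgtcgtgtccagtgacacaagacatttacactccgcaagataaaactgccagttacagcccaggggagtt
The Tgfb1 window held 75.2% G and C, above 96.1% of all promoters, with 5 GC boxes and 21 CpG dinucleotides. The Tgfb2 window held 53.6% G and C and 8 CpG dinucleotides, with a TATA box and an E-box close to the start and no GC box. The Bmp10 window held 52.0% G and C and 3 CpG dinucleotides and had no match to the 5 motifs. Among the receptors, the upstream Tgfbr1 promoter (74.8% G and C, 2 GC boxes) and the Bmpr1a promoter (78.8%, 4 GC boxes) stood near the top of all promoters, the Bmpr2 promoter held 64.0% with 1 GC box, and the Tgfbr2 promoter held 58.4% with none of the motifs. A match is a run of letters in the window and was not tied to binding of any factor.

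Tgfb1, the founding TGF-beta isoform and an inducer of fibroblast activation (chr7:25687002-25705077, GRCm38), read 2.96, 3.08, 2.86 and 3.30 FPKM in P1 replicates 1 to 4 and 6.66, 5.70, 4.54 and 4.39 FPKM in P7 replicates 1 to 4. Every P7 heart lay above every P1 heart, which was so for 17.3% of named loci. The reverse, every P7 heart below every P1 heart, was seen for 2.69% of named loci and for none of the 10 genes. Its mean FPKM went from 3.05 ± 0.19 to 5.32 ± 1.07 (SD, n = 4), a log2 fold change of 0.63 (SE 0.18, 95% interval 0.23 to 1.02) with a limma adjusted p of 0.0799. It was the least abundant of the 10 genes at both ages.

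Tgfb2 (chr1:186622817-186705992), the isoform best known from cushion and outflow tract development, was the most abundant TGF-beta isoform at both ages. It read 18.1, 16.9, 15.98 and 21.9 FPKM in the P1 hearts and 13.8, 13.5, 17.4 and 16.5 FPKM in the P7 hearts. The stages overlapped, with P1 replicate 4 highest and P7 replicates 1 and 2 lowest. P7 differed from P1 by -0.23 on the log2 scale (SE 0.18, 95% interval -0.63 to 0.16) and the limma adjusted p was 0.468.

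Tgfb3, the isoform needed for palate fusion, read 5.06, 4.50, 4.19 and 10.8 FPKM in P1 and 13.2, 9.64, 11.9 and 9.17 FPKM in P7. P1 replicate 4 sat inside the P7 range, and the other P1 hearts sat below all P7 hearts. The log2 fold change of 0.82 (SE 0.26, 95% interval 0.26 to 1.38) had a limma adjusted p of 0.109. Without P1 replicate 4 it was 1.09 with a limma adjusted p of 0.00757 and the gene was called, beside 15.4% of named loci called higher. With any other heart left out Tgfb3 was not called (limma adjusted p of up to 0.279). The files list Tgfb3 over chr12:85824659-86079041, an interval it shares with Ttll5, although the annotated gene spans chr12:86056745-86079041 on the minus strand and overlaps the end of Ttll5 on the plus strand. Whether fragments were counted by strand is not given in the sources used here, so shared fragments cannot be told apart in the overlap. Ttll5 itself lay between 5.62 and 8.28 FPKM with a log2 fold change of 0.09 (limma adjusted p = 0.769).

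Bmp4, a BMP ligand of mesenchymal and endothelial cells (chr14:46379414-46390669), read 2.94, 3.28, 2.47 and 5.61 FPKM in P1 and 8.36, 5.44, 6.80 and 7.07 FPKM in P7. P1 replicate 4 exceeded P7 replicate 2, and otherwise the stages were apart. Its mean FPKM went from 3.58 ± 1.39 to 6.91 ± 1.20 (SD, n = 4), a ratio of 1.93 and the largest of the 10 genes. The log2 fold change was 0.82 (SE 0.23, 95% interval 0.33 to 1.31) with a limma adjusted p of 0.0656, the smallest of the 10. Leaving out P1 replicate 4 gave 1.01 (limma adjusted p = 0.0102), a call, beside 15.4% of named loci called higher. Leaving out any other heart gave no call (limma adjusted p of up to 0.176).

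Bmp10, a ligand made by cardiac muscle that drives trabecular growth in the embryo and comes mainly from the atria after birth (chr6:87428936-87438829), read 20.03, 19.7, 9.69 and 6.09 FPKM in P1 and 13.4, 13.6, 17.6 and 18.4 FPKM in P7. The P1 hearts were spread on both sides of the P7 hearts. The log2 fold change of 0.30 (SE 0.32, 95% interval -0.39 to 0.99, limma adjusted p = 0.577) became -0.01 without P1 replicate 4. Because the atrial appendages were removed by hand, 7 genes of atrial muscle were read beside it, and none of them was called (summed FPKM 3911 to 5070 in P1 and 3917 to 5307 in P7). The sum is carried by Myl4, Myl7 and Nppa, and single genes lay apart in both directions: Sln (148 to 310 FPKM in P1, 364 to 668 in P7) and Nr2f2 (7.35 to 9.79, 11.3 to 16.3) lay higher in all P7 hearts, and Nppa (1315 to 1781, 800.3 to 1188) lay lower. Within P1, replicate 4 was the lowest heart for Bmp10 and also for Sln, the atrial calcium pump regulator sarcolipin (148 FPKM against 268 to 310), for Nppa and for Nr2f2, but the highest for the light chain gene Myl4. In P7, replicate 1 had the lowest Bmp10 and the highest Sln. The part of atrial tissue in the Bmp10 values was not tested beyond the ratio of Bmp10 to the atrial light chain gene Myl7, whose geometric mean was 0.0102 in P1 and 0.013 in P7 (log2 difference 0.35, 2-sided exact permutation p = 0.429, n = 4 per stage).

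**Figure D2:**
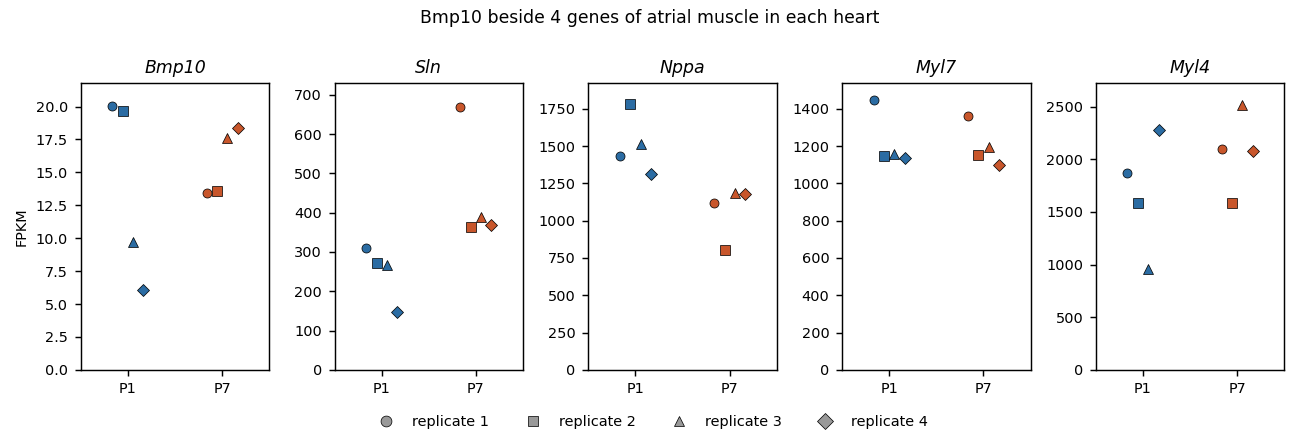
FPKM (y axis, from 0) of Bmp10 and of 4 genes of atrial muscle, Sln, Nppa, Myl7 and Myl4, in the 4 P1 hearts (blue) and 4 P7 hearts (orange), 1 symbol shape per replicate number. P1 replicate 4 (diamond) is lowest of its stage for Bmp10 (6.09) and Sln (148) and highest of its stage for Myl4.

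Among the receptors, Tgfbr1, the type I receptor kinase of TGF-beta (chr4:47353222-47414931), read 15.8, 14.5, 16.8 and 18.6 FPKM in P1 and 16.1, 10.8, 15.5 and 11.9 FPKM in P7. The stages overlapped, and the lowest values were P7 replicates 2 and 4. On the log2 scale P7 differed by -0.27 (SE 0.19, 95% interval -0.68 to 0.14, limma adjusted p = 0.436).

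Tgfbr2, the type II receptor that binds ligand first (chr9:116087698-116175363), read 8.60, 7.27, 6.22 and 12.7 FPKM in P1 and 14.5, 11.1, 15.9 and 13.8 FPKM in P7. P1 replicate 4 was the sole P1 heart within the P7 range. The log2 fold change was 0.64 (SE 0.22, 95% interval 0.16 to 1.12, limma adjusted p = 0.142). Without P1 replicate 4 it was 0.82 (limma adjusted p = 0.0227) and called, beside 15.4% of named loci called higher. With any other heart left out Tgfbr2 was not called (limma adjusted p of up to 0.334).

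Tgfbr3, or betaglycan, a co-receptor that presents TGF-beta2 to the signalling receptors (chr5:107106570-107289629), read 8.54, 7.66, 7.25 and 11.1 FPKM in P1 and 15.4, 9.13, 11.2 and 11.0 FPKM in P7. The stages overlapped through P1 replicate 4, and P7 replicate 1 was highest. Its log2 fold change was 0.39 (SE 0.21, 95% interval -0.06 to 0.83, limma adjusted p = 0.331).

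Bmpr1a, a type I BMP receptor required for heart septation (chr14:34410734-34503341), was the most abundant of the 10 genes at both ages, at 51.8, 43.6, 48.8 and 66.4 FPKM in P1 and 41.5, 36.4, 44.9 and 42.02 FPKM in P7. Only P1 replicate 2 lay within the P7 range. Its log2 fold change was -0.33 (SE 0.19, 95% interval -0.74 to 0.07, limma adjusted p = 0.358), the most negative of the 10.

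Bmpr2, the type II BMP receptor whose loss causes familial pulmonary hypertension in people (chr1:59764275-59880830), read 37.1, 31.6, 30.1 and 39.3 FPKM in P1 and 45.98, 27.5, 40.8 and 32.2 FPKM in P7. P7 replicates 1 and 2 bracketed all other hearts. Its log2 fold change was 0.06 (SE 0.21, 95% interval -0.38 to 0.51, limma adjusted p = 0.864).

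In P1 the order of mean FPKM was Bmpr1a (52.6), Bmpr2 (34.5), Tgfb2 (18.2), Tgfbr1 (16.4), Bmp10 (13.9), Tgfbr2 (8.71), Tgfbr3 (8.65), Tgfb3 (6.14), Bmp4 (3.58) and Tgfb1 (3.05). Of neighbours in that order, Bmpr1a and Bmpr2, and Bmpr2 and Tgfb2, had ranges over hearts that did not overlap. In P7 the order was Bmpr1a (41.2), Bmpr2 (36.6), Bmp10 (15.8), Tgfb2 (15.3), Tgfbr2 (13.8), Tgfbr1 (13.6), Tgfbr3 (11.7), Tgfb3 (11.0), Bmp4 (6.91) and Tgfb1 (5.32). There Bmpr2 and Bmp10, and Tgfb3 and Bmp4, were the neighbours apart. Both BMP receptors thus stood above the TGF-beta receptors in both orders, and mean FPKM over all hearts placed Bmpr1a above 91.5% of tested named loci and Tgfb1 above 44.2%. Besides Tgfb3, the files list Tgfb2, Tgfbr3, Bmp4 and Bmpr1a at intervals that also carry SNORA70, Gm8145, Gm15217 and Gm15222, and Gm17110 respectively, so fragments of these smaller genes may be shared with them. In whole-heart RNA, fewer cells of a type and less RNA per cell cannot be told apart.

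Most of the 10 genes rose and fell together from heart to heart. P1 replicate 4 was the highest P1 heart for 9 of the 10 genes and the lowest for Bmp10, and P1 replicate 3 was the lowest for 7. Of the P7 hearts, replicate 1 was highest for 6 of the genes and replicate 2 was lowest for 7. P1 replicate 4 also had the highest summed FPKM in P1 of 5 fibroblast genes (736 against 339 to 453), of 5 endothelial genes (121 against 63.6 to 82.8) and of 5 smooth muscle and pericyte genes (559 against 268 to 295). The same held for the cardiomyocyte genes (10150 against 4348 to 6740) and the macrophage genes (18.3 against 12.7 to 12.9). For the atrial, the red blood cell and the lung, thymus and liver lists, P1 replicate 1 was the highest P1 heart. The ratio of each heart to the typical heart was taken as the median over named loci. It was 0.952, 0.852, 0.801 and 1.16 in P1 replicates 1 to 4 and 1.17, 0.942, 1.27 and 1.06 in P7 replicates 1 to 4. Named loci at large were thus also highest in P1 replicate 4, lowest in P1 replicate 3 and, within P7, lowest in replicate 2. The share of named loci that rank the hearts as these genes do was not computed. Fibroblast markers moved with stage as well: 4 of the 5 (Dpt, Tcf21, Lum and Col3a1) rose by limma, with summed FPKM of 339 to 736 in P1 and 971 to 1289 in P7. Endothelial genes had 2 of 5 called higher (Cdh5 and Tie1), with summed FPKM of 63.6 to 121 and 107 to 163. The smooth muscle and pericyte list had 1 of 5 called higher (Pdgfrb), at 268 to 559 and 220 to 338. Acta2, the largest part of that sum except in P7 replicate 1 (90.7 FPKM, against 131 FPKM for Rgs5), went the other way. It was lower in every P7 heart (214 to 455 FPKM in P1, 90.7 to 199 in P7) but was not called. The means of Myh11, Rgs5 and Cspg4 were higher in P7, also without a call. The lists for cardiomyocyte, macrophage (12.4 to 18.7 FPKM over all hearts), red blood cell (315 to 1222) and lung, thymus and liver (32.5 to 89.6, with Ptcra at 0 in all hearts) had no gene called. Most of the last sum came from a locus that joins Rag1 with B230118H07Rik (31.2 to 55.7 FPKM), and the liver gene Alb read 40.3 and 23.7 FPKM in P1 replicates 1 and 3 and at most 5.63 FPKM in the other hearts. The part of these cell types in the values of the 10 genes was not tested.

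The scale of the hearts and the base composition of the transcripts both moved with these results. With hearts rescaled to a common median ratio, the median log2 fold change of named loci went from 0.19 to 0.00, and the share of calls that were higher in P7 from 95.1% (1390 higher and 72 lower) to 69.1% (1388 higher and 621 lower). On that scale Bmp4 was called higher (log2 fold change 0.63, limma adjusted p = 0.0417, beside 7.76% of named loci called higher). Bmpr1a was called lower (-0.57, limma adjusted p = 0.0155, beside 3.47% called lower). Tgfb2 (-0.46, limma adjusted p = 0.0405) and Tgfbr1 (-0.50, limma adjusted p = 0.0411) passed the p limit on that scale but not the 1.5-fold limit. Transcript GC content was 49.6% to 53.0% in the 4 genes with an unadjusted p under 0.05 and 41.0% to 46.9% in the 3 with a negative fold change. It did not sort the 10 genes by direction, since Bmpr2 (41.0%) and Bmp10 (45.8%) lay in the same range with positive values. Over named loci the median log2 fold change climbed from -0.04 at a GC content of up to 42% to 0.59 above 54%, and the share called from 1.77% to 24.2%. After a correction for GC content none of the 10 was called by limma, beside 1.95% of named loci called higher and 0.134% called lower, and Tgfbr1 stood at 0.01, Bmpr1a at -0.06 and Bmp4 at 0.70. The filter mattered too: with FPKM of at least 1 demanded of each heart, 14340 loci were tested, and Tgfb1, Tgfb3 and Bmp4 were called higher with unchanged fold changes (limma adjusted p of 0.0291, 0.0346 and 0.0188, beside 19.0% of named loci called higher and 1.17% lower). Without P1 replicate 4 the 3 called genes, Tgfb3, Tgfbr2 and Bmp4, stood beside 15.4% of named loci called higher and 0.651% lower.

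**Figure D3:**
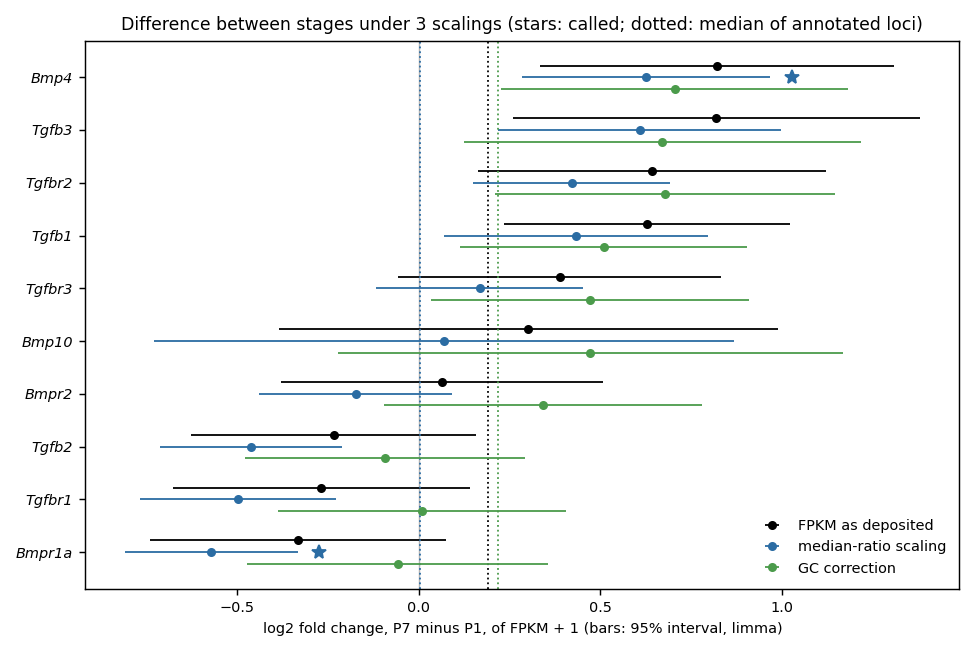
Log2 fold change, P7 minus P1, of FPKM + 1 (x axis) for each of the 10 genes, as deposited (black), after median-ratio scaling (blue) and after GC correction (green), with 95% limma intervals as bars, stars for calls and dotted lines for the median of all named loci on each scale. Bmp4 (0.63) and Bmpr1a (-0.57) are called after median-ratio scaling, and none of the 10 is after GC correction.

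A ratio of a pair of genes within a heart does not depend on how that heart was scaled. Of 8 such ratios, 4 did not overlap between the stages, and each of the 4 had a 2-sided exact permutation p of 0.0286, the smallest that 4 against 4 hearts can give. Benjamini-Hochberg adjustment over the 8 ratios gave 0.0571 for each, so none passed 0.05. How often ratios of other gene pairs do not overlap was not computed, so the count of 4 has no background share beside it. Of single named loci, 17.3% had every P7 heart above every P1 heart and 2.69% the reverse. Tgfb2 is part of both ligand ratios among the 4, so these are not separate results.

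The ratio of Tgfb2 to Tgfb1 was 6.11, 5.47, 5.60 and 6.63 in the P1 hearts and 2.06, 2.38, 3.84 and 3.77 in the P7 hearts. Tgfb2 exceeded Tgfb1 in all hearts, and by less in every P7 heart. The geometric mean went from 5.93 to 2.90, a log2 difference of -1.03 (2-sided exact permutation p = 0.0286). Promoter windows of this pair are those printed above, and their transcripts differ in GC content (46.9% for Tgfb2 and 52.5% for Tgfb1). After GC correction the difference was -0.60 (2-sided exact permutation p = 0.0286).

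The ratio of Tgfb3 to Tgfb2 was 0.280, 0.267, 0.262 and 0.493 in P1 and 0.958, 0.711, 0.684 and 0.555 in P7. P1 replicate 4 came closest to the P7 hearts. Its geometric mean went from 0.314 to 0.713 (log2 difference 1.19, 2-sided exact permutation p = 0.0286), and the difference was 0.76 after GC correction (2-sided exact permutation p = 0.0571). Tgfb3 to Tgfb1 differed by 0.15 with overlap (2-sided exact permutation p = 0.657).

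The ratio of Tgfbr1 to Tgfbr2, the type I to the type II TGF-beta receptor, was 1.84, 2.00, 2.71 and 1.46 in P1 and 1.11, 0.977, 0.976 and 0.866 in P7. The type I transcript was in excess in all P1 hearts, and the pair was nearly level in P7. The log2 difference was -0.99 (2-sided exact permutation p = 0.0286) and -0.67 after GC correction, with the same p of this exact permutation test.

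The ratio of Bmpr1a to Bmpr2 was 1.40, 1.38, 1.62 and 1.69 in P1 and 0.902, 1.33, 1.10 and 1.31 in P7. All P1 hearts lay above all P7 hearts, by a narrow gap, and P7 replicate 1 alone had more Bmpr2 than Bmpr1a. The log2 difference was -0.40 (2-sided exact permutation p = 0.0286). These transcripts have nearly equal GC content (41.3% and 41.0%), and the difference stayed at -0.40 after GC correction. The ratios of Tgfbr3 to Tgfbr2 (log2 difference -0.28, 2-sided exact permutation p = 0.143) and of Bmp10 to Bmp4 (-0.67, 2-sided exact permutation p = 0.257) overlapped between stages. The latter was 6.80, 5.99, 3.93 and 1.09 in the P1 hearts and 1.61 to 2.60 in P7. It rested on single hearts: without P1 replicate 4 the log2 difference was -1.25 (2-sided exact permutation p = 0.0286, 0.0571 adjusted), and without P1 replicate 1 it was -0.37 (2-sided exact permutation p = 0.543).

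**Figure D4:**
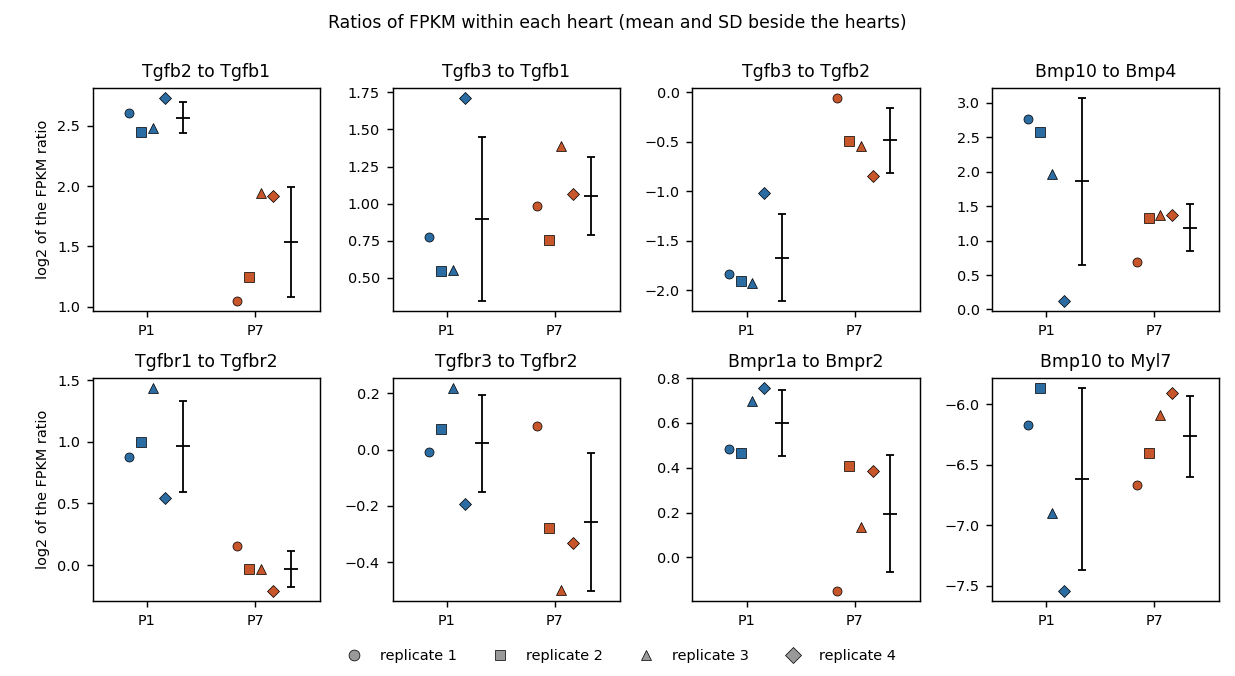
Log2 of the FPKM ratio of 8 gene pairs within each heart (y axis, a separate range per panel) for 4 P1 hearts (blue) and 4 P7 hearts (orange), with mean and SD beside them. Tgfb2 to Tgfb1, Tgfb3 to Tgfb2, Tgfbr1 to Tgfbr2 and Bmpr1a to Bmpr2 do not overlap between stages, while the other 4 do.

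The rest of the pathway was read from 7 lists of 99 genes, all with a locus, of which 69 passed the filter on low values. Of the 69, 16 rose and 0 fell by limma (23.2%, beside 8.14% of named loci). An unadjusted limma p under 0.05 was found for 35, beside 29.7% of named loci. A positive log2 fold change was found for 56, beside 67.6% of named loci. The median log2 fold change of the 69 was 0.44, against 0.19 over named loci. After median-ratio scaling 67 were tested, 15 were called higher and 1 lower, beside 7.76% and 3.47% of named loci. After GC correction 2 of the 69 were called, both higher (Hfe2 and Tgif1), a share near the 1.95% called higher among named loci.

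Storage of latent TGF-beta in the matrix had 4 calls among 14 tested genes. Ltbp4, a latent TGF-beta binding protein of elastic fibres, read 12.2, 8.31, 5.75 and 18.3 FPKM in P1 and 35.0, 35.2, 37.0 and 34.4 FPKM in P7. The P7 hearts lay close together and far above all P1 hearts (log2 fold change 1.69, SE 0.28, limma adjusted p = 0.0105). Emilin1, a matrix protein that restrains processing of pro-TGF-beta1, read 12.5, 9.38, 9.005 and 11.5 FPKM in P1 and 27.7, 23.9, 30.3 and 22.0 FPKM in P7 (1.22, SE 0.19, limma adjusted p = 0.00815), again without overlap. Ltbp3 rose from 9.02 to 19.4 FPKM (1.10, limma adjusted p = 0.0274), and Lrrc32, which holds latent TGF-beta on the cell surface, from 1.10 to 2.66 FPKM (0.82, limma adjusted p = 0.0348). Ltbp1, the fibrillins Fbn1 and Fbn2 and the integrin chains Itgav, Itgb6 and Itgb8 were among the 10 that were not called. All 4 called genes have transcripts of over 58% GC, and after GC correction none of this list was called (Ltbp4 1.22, limma adjusted p = 0.0647).

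Of 28 other ligands of the family, 12 were tested and 2 rose. Bmp6, a BMP of the endothelium, went from 4.15 to 7.94 FPKM (log2 fold change 0.81, limma adjusted p = 0.0459). Gdf10, a relative of Bmp3, went from 1.28 to 2.93 FPKM (0.79, limma adjusted p = 0.0482). Neither was called after GC correction (0.42 and 0.71, limma adjusted p = 0.313 and 0.11). With 1 heart left out, their limma adjusted p reached 0.131 and 0.174. Among 10 tested receptors and co-receptors, 3 rose. Hfe2, the BMP co-receptor hemojuvelin of striated muscle, read 15.2, 10.3, 6.99 and 6.65 FPKM in P1 and 30.4, 23.8, 37.1 and 27.2 FPKM in P7 (1.55, SE 0.25, limma adjusted p = 0.0105). It remained called after GC correction (1.28, limma adjusted p = 0.0355). Rgma, another BMP co-receptor, went from 2.25 to 5.25 FPKM (0.95, limma adjusted p = 0.0215). Acvrl1, the endothelial type I receptor of Bmp10, went from 4.44 to 10.4 FPKM (1.16, limma adjusted p = 0.0493), with P1 replicate 4 at 8.83 FPKM inside the P7 range of 8.32 to 14.2. After GC correction Rgma and Acvrl1 were not called (0.49 and 0.82, limma adjusted p = 0.246 and 0.191). With 1 heart left out, the limma adjusted p of Acvrl1 ran from 0.00386 to 0.153. The most abundant entry, endoglin (Eng), the endothelial co-receptor, read 419 ± 77.3 FPKM in P1 and 794 ± 179 in P7 (SD, n = 4; limma adjusted p = 0.0517). It is listed at a locus that also carries the name Ak1, so its level is uncertain.

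No Smad gene was called by limma. Of the 7 tested, 4 had an unadjusted limma p under 0.05, as did 29.7% of named loci. All 7 fold changes were positive, as were 67.6% of those of named loci. Smad1, a mediator of BMP signals, read 12.4, 9.22, 8.91 and 13.9 FPKM in P1 and 19.8, 14.2, 23.2 and 17.6 FPKM in P7, without overlap (log2 fold change 0.71, limma adjusted p = 0.0906). The inhibitory Smad7 read 17.2 FPKM in P1 and 25.8 FPKM in P7 on average (0.59, limma adjusted p = 0.163). Of 7 tested extracellular antagonists of 16 listed, 1 rose, the BMP antagonist Nbl1 (2.96 to 7.22 FPKM, 1.04, limma adjusted p = 0.0141). Of 10 intracellular regulators, 3 rose: Ski, a co-repressor of Smads (15.9 to 31.5 FPKM, 0.96, limma adjusted p = 0.02); Tgif1, a homeobox co-repressor of Smad2 (4.64 to 10.1 FPKM, 0.97, limma adjusted p = 0.0233); and Pmepa1, a TGF-beta-induced inhibitor of the pathway (8.64 to 15.8 FPKM, 0.80, limma adjusted p = 0.0225). Tgif1, with a GC content of 45.0%, remained called after GC correction (1.17, limma adjusted p = 0.0232).

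Of 9 textbook target genes, 3 rose. Col1a1, the collagen I chain induced by TGF-beta, read 198, 172, 200 and 233 FPKM in P1 and 405, 391, 376 and 368 FPKM in P7 (log2 fold change 0.94, limma adjusted p = 0.0213). The BMP targets Id3 (20.9 to 38.5 FPKM, 0.86, limma adjusted p = 0.0334) and Atoh8 (2.59 to 6.94 FPKM, 1.15, limma adjusted p = 0.0197) also rose. Id1 (0.78), Id2 (0.58) and Id4 (0.44) were not called, with limma adjusted p of 0.0682, 0.137 and 0.257. The TGF-beta targets Ctgf (0.23), Tgfbi (-0.05) and Postn (-0.19) had smaller values, with limma adjusted p between 0.646 and 0.89. Postn, the fibroblast protein periostin, was one of the most abundant genes of these lists, at 344 ± 130 FPKM in P1 and 293 ± 58.7 in P7 (SD, n = 4). Col1a1 rose beside 4 of 5 fibroblast markers, and the part of fibroblasts in its value was not tested.

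**Figure D5:**
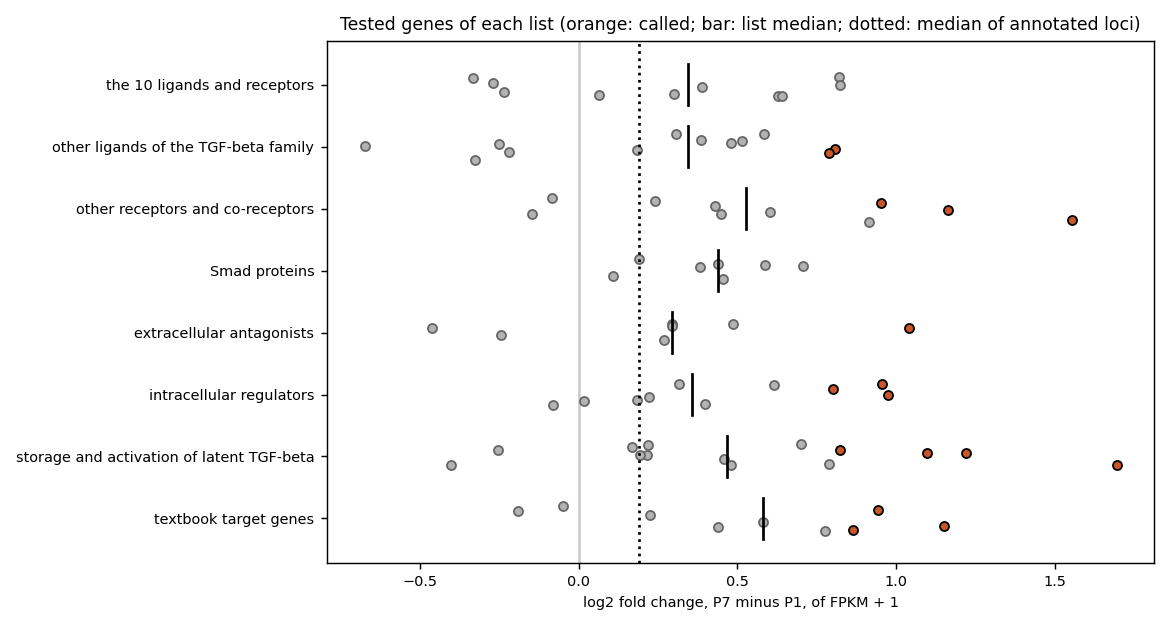
Log2 fold change, P7 minus P1, of FPKM + 1 (x axis) for each tested gene of the 10 ligands and receptors and of 7 pathway lists (1 line per list, points spread vertically for legibility), with called genes in orange, list medians as bars and the median of named loci (0.19) dotted. None of the 10 ligands and receptors is orange, and the 16 called genes all lie to the right of 0.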

How the data were processed

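RNA of 4 P1 and 4 P7 hearts was sequenced from ribosome-depleted total RNA, with 1 library per heart. The authors deposited FPKM values per locus for each heart, made from reads on GRCm38 with Ensembl release 70 gene names by a sequencing provider, per the labels and the study's methods; the aligner and the counting of strands are not given in the sources used here. The files hold 80155 loci, of which 40541 have no gene name, and some loci carry several joined gene names. They hold no read counts, so depth is known only in relative terms, and no counting interval was given.

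A locus was tested when any heart had an FPKM of 1 or more. Values were transformed to log2(FPKM + 1) and fitted in limma 3.58.1 (R 4.3.3) with a trended empirical Bayes step, stage as the term and Benjamini-Hochberg adjustment over all 43172 tested loci. A call needed an adjusted p below 0.05 together with mean FPKM differing 1.5-fold or more, the limits the study's methods state. Ratios within hearts were compared by a 2-sided exact permutation test over 70 assignments in scipy 1.17.1. The limma p sets the stage difference against the spread between hearts, with the variance moderated over loci. The exact p is the share of assignments of hearts to stages with a difference at least as large. The procedure was tested on simulated data.

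Alternatives were a pseudocount of 0.1, no filter, FPKM of at least 1 in every heart, median-ratio scaling, the replicate number as a block, no trend, GC correction (lowess with a span of 0.3 against the GC content of the longest GENCODE M21 transcript, known for 91.8% of tested named loci and 97.7% of called ones), summed loci per symbol, and leaving out each heart. GC correction of the ratios, and GC correction combined with median-ratio scaling or with the block, were added after seeing the data. The 10 genes, the 7 pathway lists and the 8 marker lists were chosen with earlier results of these data known, and 1 gene of the target list is not reported here. The text names the 10 genes, the called genes of the pathway lists, the 3 most abundant pathway genes, the target genes, markers whose level stands beside a result, and the 3 loci most correlated with each of the 10. Smad1, Smad7, Ltbp1, Fbn1, Fbn2, Itgav, Itgb6 and Itgb8 lie outside this rule and were named after their values were seen. Promoter sequences are those of RefSeq on GRCm38.p6.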

Additional observations from a re-analysis of the deposited data

Results flagged for a closer look

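Of 122 groups of 4 hearts examined for a heart far from the others of its stage (Dixon's 95% limit on the gap as a share of the range), 12 had such a heart. Chance gives about 1 in 20, or 6.1 groups, and the groups are not independent since they share hearts. P1 replicate 4 accounted for 7 of them. In that heart Tgfb3 was 10.8 FPKM (4.19 to 5.06 in the other P1 hearts), the ratio of Tgfb3 to Tgfb1 was 3.27 (1.46 to 1.71) and the ratio of Tgfb3 to Tgfb2 was 0.493 (0.262 to 0.280). In the same heart Acvrl1 was 8.83 FPKM (2.79 to 3.06), Fbn1 52.3 FPKM (24.5 to 27.2), Ltbp3 15.0 FPKM (6.51 to 7.44) and Fkbp1a 55.1 FPKM (71.5 to 74.0), the last being the one low value among these 7.

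Of the other hearts, P7 replicate 1 had a ratio of Bmp10 to Bmp4 of 1.61 (2.50 to 2.60 in the other P7 hearts), Sln at 668 FPKM (364 to 390) and Tgfbi at 6.89 FPKM (5.34 to 5.46). P7 replicate 2 had Ctgf at 46.7 FPKM (88.8 to 96.0), and P1 replicate 1 had Myl7 at 1446 FPKM (1135 to 1157).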

How the results depend on the processing

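None of the 10 ligands and receptors was called by limma in 15 of the 18 alternatives; 3 were called when each heart had to reach 1 FPKM (Tgfb1, Tgfb3 and Bmp4), 2 with median-ratio scaling, and 0 to 3 when 1 heart was left out, the 3 being reached without P1 replicate 4. The 16 calls of the pathway lists became 10 with no filter, 10 with the replicate block, 2 with GC correction, 5 with GC correction and median-ratio scaling together (2 higher, 3 lower), 3 with GC correction and the replicate block together, and 3 to 22 with 1 heart left out: 3 when the heart was P7 replicate 1 or 3 or P1 replicate 2, and 22 without P1 replicate 4. Calls over all named loci went from 1462 to 620 with no filter, 2573 when each heart had to reach 1 FPKM, 941 without the trend, 374 with GC correction, 383 with GC correction and the block, 798 with GC correction and median-ratio scaling, and 167 (without P1 replicate 2) to 2835 (without P1 replicate 4) with 1 heart left out. Log2 fold changes that turned sign were small: Tgfbr1 reached 0.0089 with GC correction, with and without the block, Bmpr2 -0.17 with median-ratio scaling and -0.053 without P7 replicate 1 (leave-one-out range -0.053 to 0.19), and Bmp10 -0.0071 without P1 replicate 4 (range -0.0071 to 0.52); the cause was not tested. Hearts with the same replicate number did not deviate together (correlations of -0.10 to 0.12, and 2 of 8 hearts were closest to their own number). The labels do not say whether the number pairs hearts, and the main fit did not use it. The replicate block gave 0 calls for the 10 genes. The 8 ratios kept their direction in 96 of 96 alternatives. That count includes the replicate block and the summed loci, which could not change any of these differences. The adjusted p of the ratios says nothing about stability, since a pass needs most ratios at the smallest p. The exact sign-flip test by replicate number cannot go below 0.125. The unadjusted exact permutation p moved. Tgfb3 to Tgfb2 had 0.0571 after GC correction and whenever any 1 of the P7 hearts was left out. Tgfbr1 to Tgfbr2 had 0.0571 without P7 replicate 4. Bmpr1a to Bmpr2 had 0.0571 without P1 replicate 2 or P7 replicate 1, and 0.0857 without P1 replicate 1, 3 or 4. Bmp10 to Bmp4 had 0.0286 without P1 replicate 4. Without that heart Bmp10 to Myl7 differed by 0.05 instead of 0.35. Limma adjusted p over the alternatives ran from 0.0291 to 0.342 for Tgfb1, 0.0405 to 0.834 for Tgfb2, 0.00757 to 0.279 for Tgfb3, 0.0411 to 0.985 for Tgfbr1, 0.0227 to 0.334 for Tgfbr2, 0.0102 to 0.182 for Bmp4 and 0.0155 to 0.901 for Bmpr1a. Depth is known only in relative terms, with 1 fragment in P1 replicate 2 worth 2.14 times that in P7 replicate 3.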

Other observations

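The named loci whose log2(FPKM + 1) ran most like that of each of the 10 genes were found by Pearson's r over 8 hearts among 10341 loci, as a description in which all points share the same libraries and their scale. Tgfb1 ran most like Gm527 (0.983), Htra3 (0.974), a secreted protease, and Foxp4 (0.973), and Tgfb2 most like Sh3kbp1 (0.988), Cyb5b (0.986) and Plk4 (0.982). Tgfb3 ran most like Tef (0.993), Smg6 (0.992) and AC124475.1 (0.992), and Bmp4 most like BC002230 (0.989), Aoc3 (0.986) and 3425401B19Rik (0.985). For Tgfbr1 the nearest were Zfp51 (0.963), Creb1 (0.963) and Ctla2a (0.962), for Tgfbr2 Dact1 (0.996), Ifngr1 (0.995) and Ppp1r15a (0.995), and for Tgfbr3 Frmd6 (0.993), Lipa (0.986) and Zfp167 (0.985). Bmpr1a ran most like Phf6 (0.978), Lpp (0.977) and Orc2 (0.971), and Bmpr2 most like Sppl2a (0.996), Nampt (0.995) and Gna13 (0.986). Bmp10 had the most distant neighbours of the 10, Mrpl23-ps1 (0.9), D11Wsu99e (0.888) and ERDR1 (0.844).

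An unnamed locus lies within the annotated Bmpr2 gene, at chr1:59763546-59764153 (GRCm38), just ahead of the listed Bmpr2 locus and across part of the window taken as its promoter. It read between 1.66 and 5.13 FPKM over the hearts, and no other unnamed locus lay inside any of the 10 genes.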
